A study of Mus musculus with 13 samples.

Results

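The 3 Myc genes and 7 immediate-early and AP-1 transcription factor genes were followed through chromatin accessibility profiles of cultured mouse oligodendrocyte progenitor cells (OPCs). The 10 genes were chosen by name (Myc, Mycn, Mycl, Fos, Fosl2, Jun, Junb, Jund, Atf3 and Egr1) from the 55450 genes of the GENCODE M21 annotation of mm10. Accessibility was measured by Omni-ATAC, in which a transposase cuts open DNA, in 13 libraries made from 13 cultures, and each library was available as 1 list of called broad peaks. The libraries fell into 4 groups, with 6 cultures from brainstem (3 control and 3 K27M) and 7 from telencephalon (3 control and 4 K27M). K27M cultures came from mice with a conditional H3-3a-LSL-K27M knock-in that were crossed to a Cre line (AMGFAP-Cre in the labels, hGFAP-Cre in the study's methods), which acts in neural stem and progenitor cells and their progeny, and control cultures came from littermates. Pups aged P5 to P7 were pooled by region and genotype before culture, so that a culture is a pool and not a single animal, and telencephalon means its dorsal part. All 4 groups were purified on anti-PDGFRa plates and expanded in the same medium with forskolin, CNTF, neurotrophin-3 and PDGF, and no group lacked these agents. The study asked how region of origin and the histone mutation alter the chromatin of these cells.

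MYC family proteins are basic helix-loop-helix factors that bind E-boxes with their partner MAX and drive growth and proliferation. FOS and JUN family proteins pair to form AP-1, ATF3 is a stress-induced partner of JUN proteins, and EGR1 is a zinc finger factor. Fos, Jun, Junb, Atf3 and Egr1 are classical immediate-early genes, which are induced within minutes by growth factors or cAMP, the second messenger that forskolin raises, through serum response elements (CArG boxes) and cAMP response elements (CREs).

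The lists held 16879 to 52466 peaks, with the shortest list in control telencephalon culture 59 and the longest in control brainstem culture 61. Read depth per library is unknown from these files. Promoter peaks of Pdgfra, Olig1, Olig2 and Sox10, markers of OPCs, were called in 13 of 13 libraries and that of Cspg4 in 3, whereas Mog and Mag, of mature oligodendrocytes, had none and Mobp had one in 1. Of the astrocyte markers Gfap was called in 13 libraries, Slc1a3 in 11, Aqp4 in 8 and Aldh1l1 in 4, and of the microglial markers P2ry12 in 12, Aif1 in 2 and neither Cx3cr1 nor Csf1r. Endothelial Cldn5 was called in 3, Pecam1 in 1 and Tek in none, and neuronal Snap25 and Syt1 in 13, Gad1 in 12 and Rbfox3 in 11. An open promoter does not show that a gene is transcribed, and the part of other cell types in the results was not tested.

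All 10 promoters carried a called peak in 13 of 13 libraries. A promoter peak was any peak that overlapped the stretch from 2 kb upstream to 1 kb downstream of an annotated transcript start, and 11483 genes had one in every library. Its level is the fold enrichment over background given by the peak caller, which for broad peaks is an average over the called region, and its fold percentile is the share of peaks of the same list with a lower fold.

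The promoters of the 3 Myc genes were open in all cultures with mean fold percentiles below 30, although Mycl reached 74.5 and 69.4 in 2 libraries. Myc (chr15:61985391-61990374, plus strand) is the proto-oncogene of the family. Its promoter fold was 2.98, 2.56 and 2.57 in control brainstem, 2.54, 2.51 and 2.60 in K27M brainstem, 2.48, 2.52 and 2.53 in control telencephalon and 2.51, 2.56, 2.69 and 2.40 in K27M telencephalon. Control brainstem culture 51 was highest, and the other 12 libraries lay within the range from 2.40 to 2.69. In that culture alone the Myc promoter was called as 2 peaks, the stronger 1311 bp wide. Control telencephalon culture 59 also had a narrow peak, of 995 bp, with a fold of 2.52, and the part of peak width was not tested. All 3 control brainstem values lay above the 3 control telencephalon values by a small margin (2.56 against 2.53), while both K27M groups overlapped them. Of all 11483 promoters, 6.66% were separated this way in that direction. With each library centred on its median promoter, that difference was -0.03 on the log2 scale (SE 0.121). The Myc peak had a mean width of 3390 bp and began 630 to 1987 bases upstream of the first annotated start.

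Mycn (chr12:12936093-12941914, minus strand), the family member of neural progenitors, had the lowest mean fold of the 3, 2.40 ± 0.12 (SD, n = 13) against 2.57 ± 0.14 for Myc. Its fold was 2.48, 2.55 and 2.25 in control brainstem, 2.56, 2.45 and 2.35 in K27M brainstem, 2.47, 2.36 and 2.52 in control telencephalon and 2.26, 2.35, 2.45 and 2.18 in K27M telencephalon. The lowest value was in K27M telencephalon culture 61, and the 4 groups overlapped. Within its own list, the Myc promoter stood above that of Mycn in 12 of 13 libraries, by a mean of 11.5 fold percentile points (SD of the difference 11.8).

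Mycl (chr4:122995652-123002485, plus strand) varied more widely, from 2.41 to 3.55. It was 2.79, 2.49 and 2.59 in control brainstem, 3.55, 2.43 and 2.57 in K27M brainstem, 2.41, 2.44 and 2.91 in control telencephalon and 2.76, 3.41, 2.54 and 2.43 in K27M telencephalon. The highest values were in K27M brainstem culture 41 and K27M telencephalon culture 51, and both K27M groups also held values of 2.43. The Mycn and Mycl peaks rested on weak evidence in some libraries. When each list was cut to its 16879 peaks of lowest p-value, the length of the shortest list, both were left in 8 libraries, and at p-values of at most 1e-10 Myc was left in 5, Mycl in 2 and Mycn in 1. The share of all promoters left at these cuts is not given here.

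**Figure D1:**
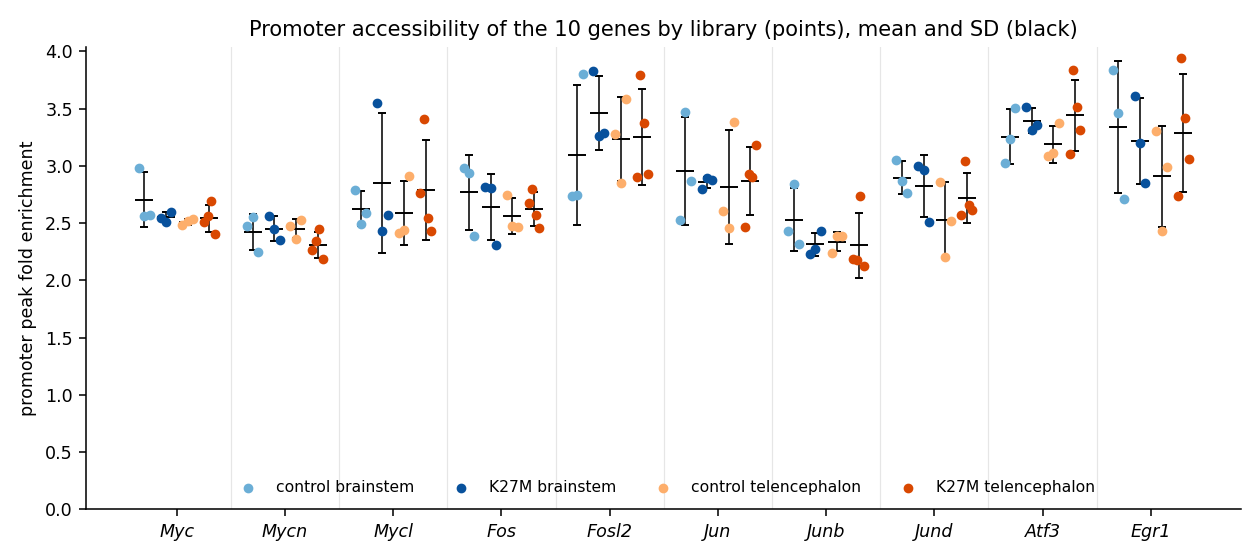
Fold enrichment (y axis) of the strongest promoter peak of each of the 10 genes (x axis) in each library (coloured points by group), with the mean and SD of each group in black. All pairs of groups overlapped except control brainstem with control telencephalon for Myc (groups separated in either direction at 6.78% of all promoters), and values ran from 2.12 for Junb to 3.94 for Egr1.

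Among the Fos genes, Fosl2 had a higher fold than Fos in 11 of 13 libraries, all but control brainstem cultures 51 and 59. Fos (chr12:85473890-85477273, plus strand), the prototype immediate-early gene, had a promoter fold of 2.98, 2.93 and 2.39 in control brainstem, 2.81, 2.80 and 2.31 in K27M brainstem, 2.74, 2.47 and 2.46 in control telencephalon and 2.68, 2.80, 2.57 and 2.45 in K27M telencephalon. In both brainstem groups culture 61 was lowest, and the groups overlapped. The peak had a mean width of 2506 bp and covered the start in 13 of 13 libraries, beginning 1684 to 2006 bases upstream.

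The 250 bases before the Fos start are shown because they hold the letters of elements through which the gene is known to answer cAMP. The sequence is from RefSeq (GRCm38.p6, chr12:85473640-85473889, plus strand, 5′ to 3′). Capitals mark TGACG, the core of the CRE, and TATAAA.

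Fos promoter: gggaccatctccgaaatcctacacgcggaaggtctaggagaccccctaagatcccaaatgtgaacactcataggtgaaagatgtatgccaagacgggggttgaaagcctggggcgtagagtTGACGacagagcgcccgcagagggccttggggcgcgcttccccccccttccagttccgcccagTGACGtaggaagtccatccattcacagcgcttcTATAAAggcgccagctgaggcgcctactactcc

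The CRE cores began 129 and 66 bases upstream of the start and the TATAAA 33 bases upstream, with the GC box GGGCGG (found here on the opposite strand) at 74. Both strands were searched. Of the 32817 RefSeq promoters searched over the same length, 17.7% held TGACG, 12.4% TATAAA and 32.7% GGGCGG. Entries were found for 8 of the 10 genes, all but Myc and Egr1, and the whole palindrome TGACGTCA (1.55% of promoters), the AP-1 site TGACTCA (4.46%), the E-box CACGTG (6.02%) and the CArG box (1.47%) were in none of these 8 windows. Bases farther upstream than these windows were not searched here. At Fos the called peak began 1684 to 2006 bases upstream. A CArG box between the window and that edge was therefore not looked for. The RefSeq window of Jund lies upstream of the GENCODE start and overlapped a called peak in 0 libraries. Those of Mycl (chr4:122995681-122995930) and Fosl2 (chr5:32136222-32136471) lie downstream of the first GENCODE start, inside the gene. The windows of Mycn, Mycl, Fosl2 and Atf3 overlap annotated exons, so for these genes they are not purely upstream sequence.

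Fosl2 (chr5:32135801-32157842, plus strand), which encodes the FOS-related FRA-2, had folds of 2.74, 2.74 and 3.80 in control brainstem, 3.83, 3.26 and 3.29 in K27M brainstem, 3.28, 2.85 and 3.58 in control telencephalon and 2.90, 3.79, 3.37 and 2.93 in K27M telencephalon. Control brainstem cultures 51 and 59 were the lowest of the 13 libraries and control brainstem culture 61 was among the highest, so that this group spanned nearly the whole range. The strongest peak was 3353 bp wide in control brainstem culture 51 and 973 to 1558 bp wide in the other libraries. In 6 libraries the promoter was called as 2 peaks, and the part of peak width in the fold was not tested.

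The 3 Jun genes were open in all cultures. Jun (chr4:95049034-95052222, minus strand), the main DNA-binding partner in AP-1, had folds of 2.53, 3.47 and 2.87 in control brainstem, 2.80, 2.89 and 2.87 in K27M brainstem, 2.60, 2.46 and 3.38 in control telencephalon and 2.47, 2.92, 2.90 and 3.18 in K27M telencephalon. The control groups spread more widely than K27M brainstem, whose values lay inside both. The called peak, 3019 bp wide on average, also covered Junos, the antisense transcript at this promoter, and the 2 genes cannot be told apart in it.

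Junb (chr8:84974484-84978718, minus strand) had the lowest mean fold of the 10 genes, 2.37 ± 0.21 (SD, n = 13). It was 2.43, 2.84 and 2.32 in control brainstem, 2.23, 2.28 and 2.43 in K27M brainstem, 2.24, 2.39 and 2.39 in control telencephalon and 2.19, 2.17, 2.73 and 2.12 in K27M telencephalon. The highest values were those of control brainstem culture 59 and K27M telencephalon culture 59. In 5 libraries, the 4 of culture 59 and K27M brainstem culture 61, the region was called as 2 separate peaks, the stronger of them 616 to 1067 bp wide, and in the other 8 it was called as 1 peak of 2874 to 4263 bp. These 5 lists held 16879 to 34168 peaks, and the part of list length in the split was not tested.

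Jund (chr8:70698949-70700616, plus strand), the most constantly expressed Jun gene, had folds of 3.05, 2.87 and 2.76 in control brainstem, 3.00, 2.96 and 2.51 in K27M brainstem, 2.86, 2.21 and 2.51 in control telencephalon and 2.57, 3.04, 2.65 and 2.61 in K27M telencephalon. The lowest value was in control telencephalon culture 59, the shortest list. The peak also covered the start of Gm11175 and filled 42.0 to 100% of the gene.

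The 250 bases before the RefSeq starts of Jun (chr4:95052223-95052472, minus strand) and Junb (chr8:84978749-84978998, minus strand) are given for comparison with Fos. A called peak overlapped all 3 windows in 13 of 13 libraries, but at Junb it reached only 147 bases upstream of the annotated start in the library where it was shortest on that side, and so covered part of the window there. Capitals mark TGACG.

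Jun promoter: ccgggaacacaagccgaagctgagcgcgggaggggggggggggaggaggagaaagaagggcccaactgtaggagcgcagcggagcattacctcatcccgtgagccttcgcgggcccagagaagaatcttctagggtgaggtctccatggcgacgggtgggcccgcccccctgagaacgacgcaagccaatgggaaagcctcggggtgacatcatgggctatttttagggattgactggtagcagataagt
Junb promoter: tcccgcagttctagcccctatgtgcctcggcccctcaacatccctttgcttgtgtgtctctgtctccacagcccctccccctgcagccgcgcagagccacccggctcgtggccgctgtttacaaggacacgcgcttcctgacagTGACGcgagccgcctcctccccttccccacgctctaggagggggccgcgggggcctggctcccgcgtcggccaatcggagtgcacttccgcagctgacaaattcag

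Junb held 1 CRE core, 106 bases upstream, and Jun held none of the exact letters in the window shown. In its own upstream window, Atf3 held 1 at 7 bases upstream together with 5 GC boxes. The central 300 bases of the promoter peaks held 2 CRE cores at Jun and 2 at Junb. They held 1 each at Fos, Fosl2, Jund and Egr1 and none at Myc, Mycn, Mycl and Atf3. Of all promoter peaks called in every library, 31.0% held at least 1 there. These central windows follow the stretch called in every library and are not set by distance from the start. Those of Junb (chr8:84976405-84976704) and Egr1 (chr18:34860557-34860856) lay inside the gene, downstream of the annotated start. So did those of Mycn, Mycl and Atf3 (for Atf3, downstream of the internal start).

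Atf3 and Egr1, with Fosl2, had the highest folds. The Atf3 promoter peak was at the internal start (position 191183340 of chr1:191170296-191218039, minus strand), and no peak was called at the distal start. Its fold was 3.02, 3.24 and 3.50 in control brainstem, 3.52, 3.31 and 3.36 in K27M brainstem, 3.08, 3.11 and 3.37 in control telencephalon and 3.10, 3.83, 3.51 and 3.31 in K27M telencephalon. The groups overlapped. On the centred log2 scale Atf3 was the steadiest of the 10 genes, with an SD of 0.105. On the fold as deposited it was not, with an SD of 0.23 against 0.12 for Mycn and 0.14 for Myc.

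Egr1 (chr18:34859823-34864984, plus strand) had folds of 3.84, 3.46 and 2.71 in control brainstem, 3.61, 3.19 and 2.85 in K27M brainstem, 3.30, 2.43 and 2.99 in control telencephalon and 2.73, 3.94, 3.42 and 3.06 in K27M telencephalon. It had the strongest evidence of the 10 genes, being the one called in 13 of 13 libraries at p-values of at most 1e-10 (Jun 11, Fosl2 9, Jund and Atf3 8, Fos 6, Junb 2). The share of all promoters left at that cut is not given here, so these counts rank the 10 genes only among themselves. Its peak lay inside the gene. In no library did a called peak cover the first annotated base, and the peak began 4 to 119 bases downstream of it. Of 9211 protein-coding genes with a promoter peak in every library, the first base was in no called peak for 7.86% and in a called peak in all 13 libraries for 68.9%. The first base was covered in 12 libraries for Mycn and Mycl and in 13 for the other 7 genes, with Atf3 taken at its internal start. No called peak covered the first annotated base of Atf3, at its distal start.

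Ordered by mean fold percentile, the promoters ran from Atf3 (70.3), Fosl2 (62.8) and Egr1 (60.0) through Jun (43.1), Jund (35.2), Fos (29.0), Mycl (29.0) and Myc (22.4) to Mycn (10.9) and Junb (9.19). Most neighbours in this order changed places between libraries. The higher gene led in 6 to 10 of 13 libraries for every neighbouring pair but Myc and Mycn, and each mean difference between neighbours was smaller than its SD over the libraries.

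The promoter peaks of these genes were wide and shallow beside other promoters. In median, width stood at the 96.1 percentile of its list and fold at 32.1, against 74.9 and 75.2 for all 11483 promoters called in every library. Width was above the 90 percentile for 8 of the 10 genes (all but Fosl2 and Junb) and for 14.9% of all promoters, and fold was below 50 for 7 of 10 (all but Atf3, Fosl2 and Egr1) and for 16.6% of all promoters. The 1715 promoters with width above the 90 percentile had a median fold percentile of 64.1, and the 8 genes among them one of 32.1. Since the fold is an average over the called region, the 2 measures share the same peak calls. These are descriptions with no test.

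**Figure D2:**
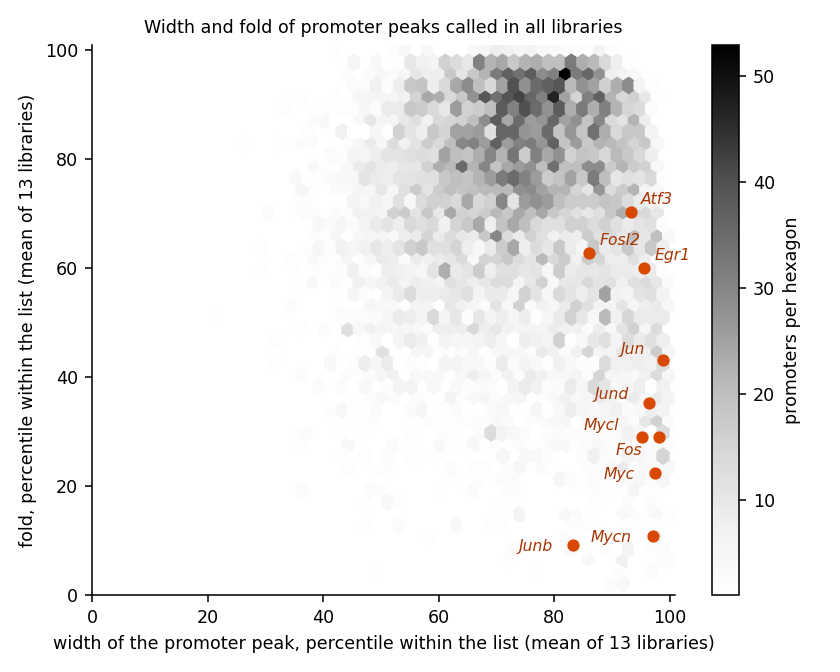
Mean fold percentile (y axis) against mean width percentile (x axis) of the promoter peak, for 11483 promoters called in all 13 libraries (grey hexagons, shaded by number of promoters) and the 10 genes (orange). All genes but Fosl2 and Junb lie above a width percentile of 90, and 7 of the 10 lie below a fold percentile of 50, whereas most promoters lie near the top.

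No difference between brainstem and telencephalon was called at any of the 10 promoters. The differences in log2 fold, brainstem minus telencephalon, ran from -0.07 for Atf3 to 0.07 for Jund (SE 0.069 to 0.089), with a median of -0.03 for the 10 and -0.01 for all promoters. Under limma's moderated test with Benjamini-Hochberg adjustment over 11483 promoters, 0 of 10 passed an adjusted p of 0.05 (lowest 0.980) and 0.0174% of all promoters did. Together, the 95% intervals of the 10 differences reached from 0.860-fold to 1.17-fold. With no centring, the region difference turned from below to above 0 for all but Jund and Egr1, which stayed above 0, and 0 of 10 passed there too. In the K27M cultures alone 0 of 10 passed, beside 0.0261% of all promoters (lowest adjusted p of the 10 by limma 0.999).

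In the control cultures alone, 0 of 10 and 0% of all promoters passed. The largest difference was that of Fosl2, at -0.21 (SE 0.101, 95% interval -0.42 to -0.01, adjusted p = 0.958 by limma, unadjusted p = 0.045). On the centred log2 scale of the test, control brainstem cultures 51 and 59 were lowest, at -0.35 and -0.30, and culture 61 was at -0.10, within the control telencephalon range of -0.11 to 0.02. On the fold as deposited, culture 61 was above all 3 control telencephalon cultures.

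Between genotypes, no difference was called at the 10 promoters either. K27M minus control ran from -0.10 for Junb to 0.10 for Egr1 (SE 0.075 to 0.097), 0 of 10 and 0% of all promoters passed, and the lowest adjusted p of the 10 by limma was 0.999. The intervals of these differences reached from 0.814-fold to 1.21-fold. Within brainstem they ran from -0.10 for Junb to 0.21 for Fosl2, and within telencephalon from -0.18 for Mycn to 0.12 for Egr1, with 0 of 10 and 0% of all promoters passing in each. Before adjustment 502 of all promoters had p under 0.05 in the genotype comparison, against 590 in the comparison of regions.

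The effect of K27M was next compared between regions. The interaction was largest for Fosl2, at 0.29 (SE 0.140, 95% interval 0.01 to 0.58, adjusted p = 1.000 by limma, unadjusted p = 0.044), with K27M minus control at 0.21 in brainstem and -0.08 in telencephalon. Mycn followed at 0.22 (SE 0.161), with 0.04 in brainstem and -0.18 in telencephalon. None of the 10 and 0% of all promoters passed.

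**Figure D3:**
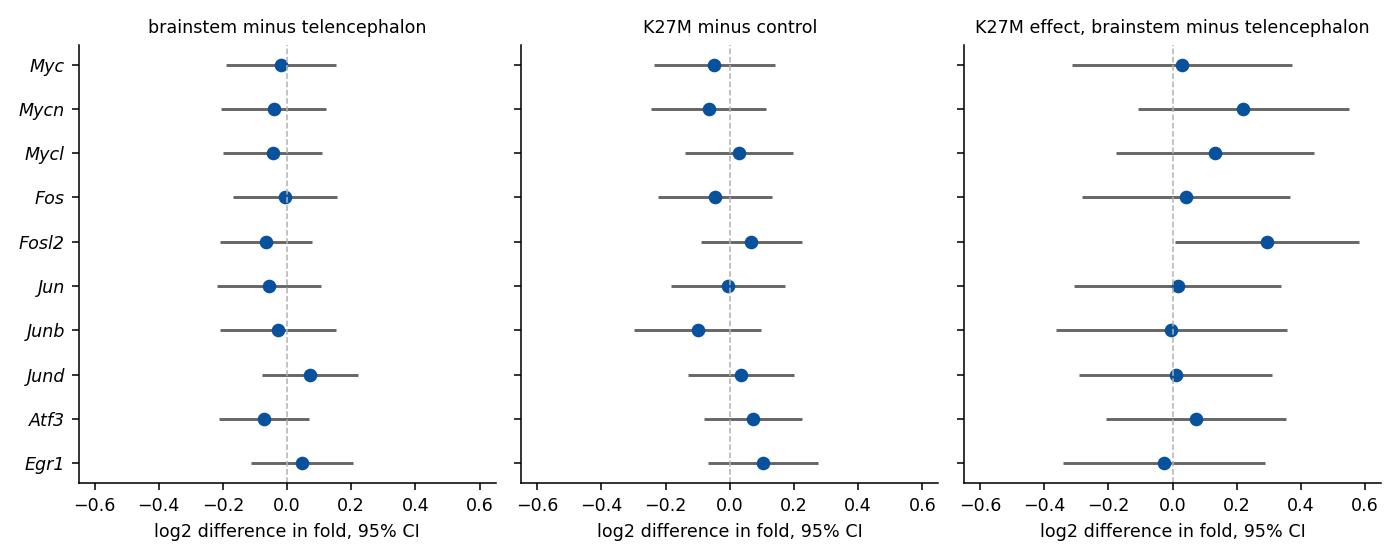
Differences in log2 promoter fold with 95% confidence intervals (x axis) for the 10 genes (y axis), for region, genotype and the interaction of both. The intervals span 0 in the region and genotype panels for all 10 genes, and for all but Fosl2 in the interaction panel, where adjusted p was 1.000.

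Around the genes, 94 merged peaks (peaks of all libraries joined where they overlapped) lay in a gene or within 50 kb of it, of which 10 were the promoter peaks. Of the other 84, 14 were called in all 13 libraries and 31 in 1 library. Of those 14, 8 lay at promoters of other genes, such as Lsm4 at 25.5 kb upstream of Jund and Trit1 at 21.1 kb downstream of Mycl, and 6 lay away from any promoter, 3 at Fos, 1 at Jun and 2 at Egr1. The number of peaks within 50 kb of the 10 genes was 28 in control telencephalon culture 59, the shortest list, and 46 to 64 in the other 12 libraries.

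**Figure D4:**
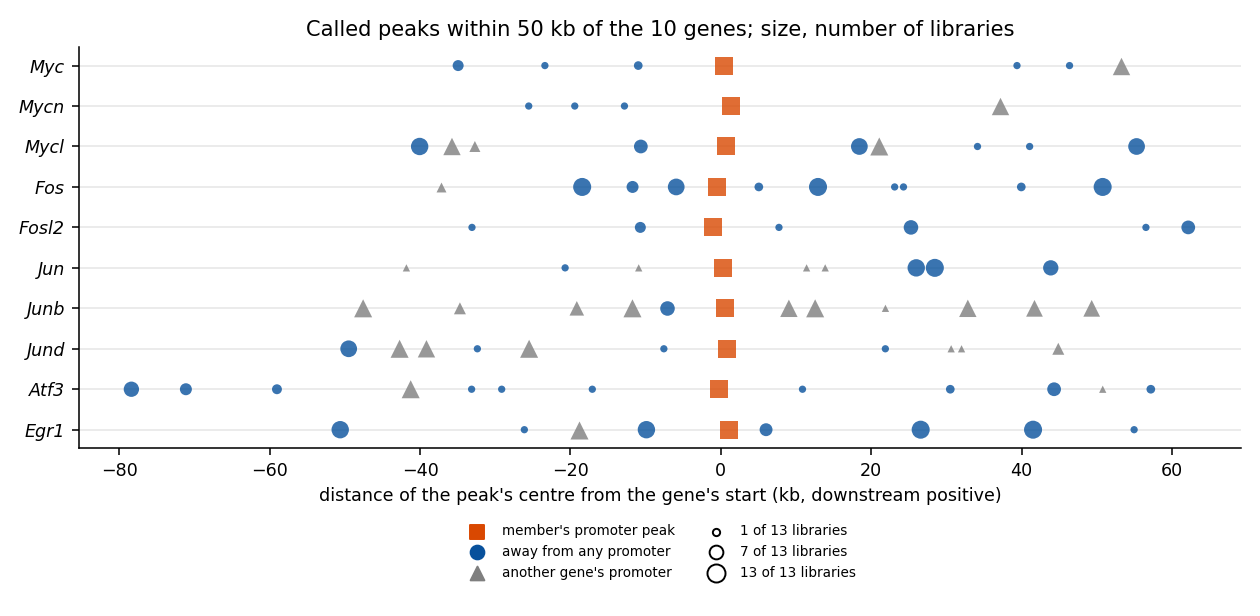
Centres of merged peaks along distance from the start of each gene in kb (x axis, downstream positive), by gene (y axis), with marker size giving the number of libraries. Fos, Egr1 and Jun hold the large blue points away from promoters (6 called in 13 of 13 libraries), whereas grey triangles at promoters of other genes fill the surroundings of Junb.

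Fos had more shared peaks away from promoters than the other 9 genes. A peak 18.4 kb upstream had a mean fold of 4.00 ± 0.50 (SD, n = 13), at the 88.9 percentile of the lists, and so stood above the promoter itself (2.65 ± 0.22). A peak 50.8 kb downstream was at 3.44 ± 0.45 and one 12.9 kb downstream at 2.72 ± 0.27. No annotated gene overlapped these 3 peaks. The corresponding peaks 26.6 and 41.5 kb downstream of Egr1 were at 2.72 ± 0.18 and 2.94 ± 0.30, below the Egr1 promoter (3.19 ± 0.45). Downstream of Jun by 28.5 kb, a peak inside the noncoding gene Gm12694 was at 3.45 ± 0.45, above the Jun promoter (2.87 ± 0.32). The merged peaks 18.4 kb upstream of Fos and 28.5 kb downstream of Jun were 1431 and 1398 bp wide. The promoter peaks of Fos and Jun were 2506 and 3019 bp wide on average. The part of peak width in these folds was not tested.

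The central 300 bases of the stretch that was called in every library are shown for the 4 peaks at Fos and Jun, away from promoters (GRCm38.p6 genome, plus strand, 5′ to 3′; chr12:85455335-85455634, chr12:85486093-85486392, chr12:85524612-85524911 and chr4:95023608-95023907). Capitals mark TGACG or its reverse complement CGTCA, and the CArG box.

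Fos 18.4 kb upstream: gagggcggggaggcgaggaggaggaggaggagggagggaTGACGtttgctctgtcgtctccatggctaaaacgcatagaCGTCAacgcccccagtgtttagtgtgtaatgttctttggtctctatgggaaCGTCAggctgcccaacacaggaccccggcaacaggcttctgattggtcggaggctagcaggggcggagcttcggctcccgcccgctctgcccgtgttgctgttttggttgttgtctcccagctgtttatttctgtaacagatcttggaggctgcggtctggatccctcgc
Fos 12.9 kb downstream: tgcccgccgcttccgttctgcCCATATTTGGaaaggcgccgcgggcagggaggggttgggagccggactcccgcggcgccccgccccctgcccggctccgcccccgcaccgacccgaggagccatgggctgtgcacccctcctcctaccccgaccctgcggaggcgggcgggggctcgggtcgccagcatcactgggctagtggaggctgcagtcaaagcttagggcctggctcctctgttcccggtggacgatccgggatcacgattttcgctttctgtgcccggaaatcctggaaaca
Fos 50.8 kb downstream: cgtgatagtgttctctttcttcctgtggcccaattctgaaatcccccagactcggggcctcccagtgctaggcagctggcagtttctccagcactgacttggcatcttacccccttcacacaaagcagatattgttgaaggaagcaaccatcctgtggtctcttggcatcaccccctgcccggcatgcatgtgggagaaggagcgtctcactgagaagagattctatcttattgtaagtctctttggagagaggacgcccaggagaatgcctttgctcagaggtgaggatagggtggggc
Jun 28.5 kb downstream: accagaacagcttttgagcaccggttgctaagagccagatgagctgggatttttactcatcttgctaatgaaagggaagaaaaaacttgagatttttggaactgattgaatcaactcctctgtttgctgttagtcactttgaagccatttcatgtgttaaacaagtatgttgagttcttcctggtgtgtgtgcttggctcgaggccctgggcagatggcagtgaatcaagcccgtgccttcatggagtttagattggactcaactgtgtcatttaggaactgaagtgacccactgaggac

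The upstream Fos peak held 3 CRE cores, and 13.3% of the 3901 peaks shared by all libraries away from promoters held at least one in their central 300 bases. The Fos peak 12.9 kb downstream held a CArG box, present in 1.77% of those peaks. The other 2 windows held none of the motifs searched. In the central 300 bases of promoter peaks, the CArG box was found 2 times at Egr1 and 1 time at Junb, and TGACTCA at Fosl2 (0.870% and 2.78% of shared peaks at promoters). The Egr1 and Junb windows lay inside the genes, downstream of the annotated start, and not in the upstream promoter. The peak 11.8 kb upstream of Junb, at the Hook2 promoter, also held a CArG box. A match is only a match of letters.

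No difference between groups was called at the surrounding peaks. Of the merged peaks called in all 13 libraries, 24 belonged to the 10 genes or their surroundings, and 0 of 24 passed for region by limma (lowest adjusted p 0.890), beside 0.0229% of all 13075 shared peaks. For genotype 0 of 24 passed, beside 0% of all (lowest adjusted p by limma 0.965). The differences were from -0.09 to 0.09 for region and from -0.20 to 0.16 for genotype, with the peak 28.5 kb downstream of Jun at -0.20 (SE 0.077) and the peak 50.8 kb downstream of Fos at 0.16 (SE 0.077). A further 11 peaks were called in 5 to 8 libraries and so tested for presence. The smallest p by two-sided Fisher's exact test was 0.103, both for a peak 11.7 kb upstream of Fos (in 4 of 6 brainstem and 1 of 7 telencephalon libraries) and for one 71.2 kb upstream of the internal Atf3 start (in 4 of 6 control and 1 of 7 K27M libraries), with adjusted p = 1.000, and 0% of all 11706 peaks tested passed in either comparison. By the same test no promoter passed among 1815 tested (before adjustment, 39 were under 0.05 in the comparison of regions and 22 in that of genotypes), and the 10 promoters, called in every library, were not among those.

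Related genes spanned nearly the whole range of levels. Of 55 names listed, 51 were in the annotation. Of these, 36 were called in every library, 11 in some and 4 (Batf, Atf4, Mafg and Npas4) in none. Beside them, 11483 of all 55450 annotated genes, of any type, were called in every library. None of the 36 passed in any of the 7 promoter comparisons. In the MYC network, 8 of 10 were called in every library, with a median fold percentile of 85.7, led by the MAX partner Mxd1 (98.5) and by Max itself (92.6). Among the other AP-1 and ATF/CREB genes, 11 of 17 were, with a median of 62.3, led by Atf7 (95.5) and Creb1 (93.4), the factor that binds CREs. Of 20 other immediate-early genes 14 were, with a median of 43.2, from 76.6 for Klf2 down to 6.56 for Ier2. Of 4 serum response genes found, 3 were, and Srf, which binds CArG boxes, stood at 42.9. Fosb was called in 12 libraries and Fosl1 in 9.

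With each library centred on its median promoter, levels of several of the 10 genes moved together from culture to culture, along with the number of peaks called, and most of these relations were weaker with no centring. On this centred log2 scale, Junb had an SD of 0.213, above 98.7% of all promoters, Egr1 0.198 (97.2%), Jun 0.176 (91.7%) and Fos 0.174 (91.1%). The centred Myc fold fell with the log2 number of peaks in the list (r = -0.885, rho = -0.912 over 13 libraries, permutation p = 3e-05 and 4e-05, adjusted over the 10 genes 0.00015 and 0.0002; r = -0.879 without the 2 libraries farthest from the median number). Mycn (r = -0.872) and Junb (r = -0.865) followed the same course. These relations stood within each region, at -0.888 in brainstem and -0.934 in telencephalon for Myc. On the log2 fold with no centring, the correlation with the number of peaks was -0.164 for Myc, -0.104 for Mycn, -0.446 for Junb, 0.104 for Fos and 0.554 for Atf3, and the median promoter fold subtracted in centring itself rose with the number of peaks (r = 0.885). Of all 11483 promoters, 1.42% had r below -0.8.

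Jund and Egr1 moved together in a way that centring did not change much. Their centred folds had r = 0.830 and rho = 0.764 over the 13 libraries (permutation p = 0.00046 and 0.00323, adjusted over 45 pairs 0.00367 and 0.0242; r = 0.834 without the 2 farthest), and r = 0.851 with no centring. The correlation was 0.938 in brainstem and 0.755 in telencephalon. In brainstem both centred folds also fell with the number of peaks (r = -0.775 for Jund and -0.679 for Egr1). In telencephalon these relations were -0.184 and 0.107. With no centring both folds rose with the number of peaks (0.575 and 0.388), and the part of peak number in this pair was not tested. Fos and Jund had r = 0.850 and rho = 0.742 (permutation p = 0.00016 and 0.00506, adjusted 0.00315 and 0.0317; r = 0.708 without the 2 farthest; 0.744 with no centring). Of the 45 pairs, 7 passed by both coefficients, and 5 of these 7 joined genes among Myc, Mycn, Junb and Fos, whose centred levels also fell with the number of peaks. With no centring, r of these 5 pairs was 0.326 for Myc and Mycn, 0.430 for Myc and Junb, 0.350 for Myc and Fos, 0.504 for Mycn and Junb and 0.560 for Mycn and Fos, and the part of peak number in them was not tested. Over all other promoters, the one most like that of Fos was Trib1 (r = 0.980), which was also the one most like that of Jund (r = 0.868). Among 11482 other promoters ordered by centred r, the nearest of the 10 genes ranked 73 for Myc, 29 for Mycn and 28 for Junb. It ranked 19 for Fos, 4 for Jund and 2 for Egr1. Many promoters outside the 10 genes were thus as alike for most of these genes, and the share of all promoter pairs that would pass was not counted.

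**Figure D5:**
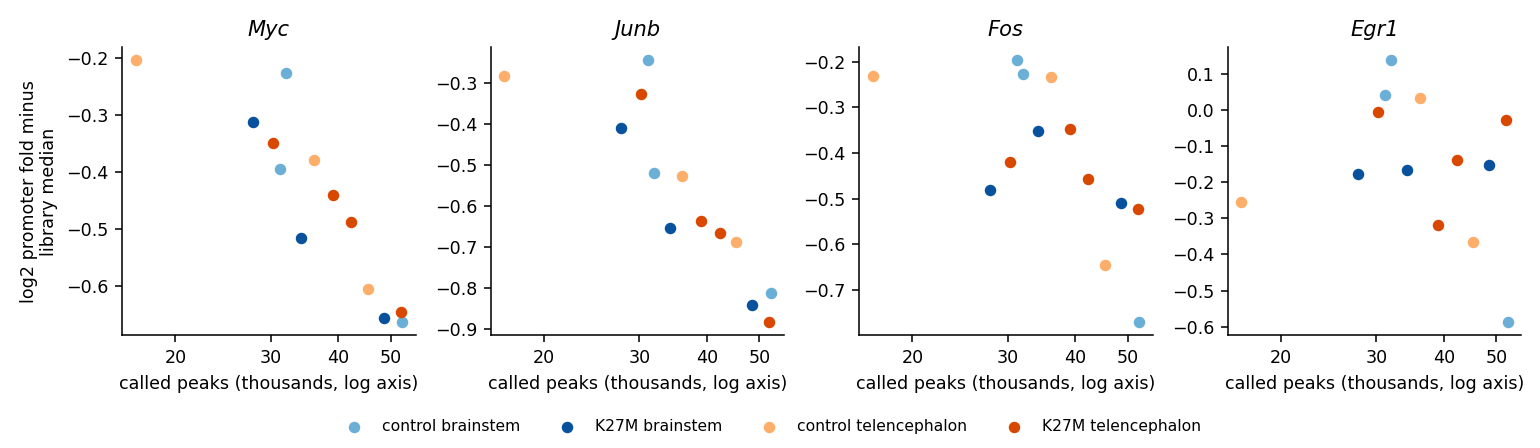
Log2 promoter fold minus the library's median over all promoters (y axis) against the number of called peaks (x axis, log scale) for Myc, Junb, Fos and Egr1, with 1 point per library coloured by group. Myc and Junb fall steadily with the number of peaks (r = -0.885 and -0.865), Fos less so (r = -0.668) and Egr1 little (r = -0.244).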

How the data were processed

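ATAC-seq peak lists of 13 OPC cultures were analysed. Per the labels, reads were processed with bcl2fastq 2.20.0.422, Trim Galore 0.6.7 (cutadapt 3.4), BWA 0.7.17-r1188 to mm10 and MACS2 2.2.7.1. The authors deposited 1 broad peak list per library, and its fold enrichment (a ratio of pileup to local background, averaged over the region) and −log10 p-value were used as deposited. Depth is not in these lists. GENCODE M21 gave genes and starts, and the strongest peak overlapping a start window (2 kb upstream to 1 kb downstream) gave the promoter fold. Log2 folds, with no pseudocount, were centred on the library median and fitted in limma 3.58.1 (R 4.3.3) with 4 groups and culture number as a block, since the study matched cultures. Features called in all 13 libraries were tested, and those in 5 to 8 by Fisher's exact test, with Benjamini-Hochberg adjustment over all features. The p-values by limma measure spread between cultures, with the estimate of spread moderated over all features. Fisher's exact test took the 13 libraries as separate and left out the culture number. Correlations used 100000 permutations of the 13 libraries taken as separate, with group and culture number left out. Alternatives were no block, no centring, percentiles, equal peak number, p of at most 1e-10, a window of 1 kb to 500 bp, width times fold, joining at 100 bp, and each library left out. The fits were tested on simulated data. The genes named were the 10 members, their most open surrounding peaks, and the highest, lowest and uncalled of the related lists. The genes and lists were chosen with earlier results of these data known. Cyr61, Ctgf, Mkl1 and Mkl2 were not found under these names.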

Additional observations from a re-analysis of the deposited data

Results flagged for a closer look

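In the group of 4 K27M telencephalon cultures, the Junb promoter fold of culture 59 (2.73) stood apart from the other 3 (2.12 to 2.19), with a gap of 0.873 of the group's whole range on the log2 scale. In that library the Junb region was called as 2 peaks, the stronger 748 bp wide, against 3325 to 4013 bp in the other 3. Chance flags about 1 in 20 groups, and 20 values were looked at.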

How the results depend on the processing

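Calls over all features were few and moved with the settings, and none concerned the 10 genes. For promoter fold by region, 2 calls became 4 with no replicate block, 0 with no centring, with within-list percentiles and at p of at most 1e-10, 1 with the narrower window and 1 with width times fold. For region in K27M, 3 calls became 1 with no centring and with width times fold, and 0 with percentiles and at p of at most 1e-10. For genotype in brainstem, 0 became 1 with no centring. For shared peak fold by region, 3 became 0 with no centring, with percentiles and at p of at most 1e-10, and 1 with equal peak number.

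With single libraries left out, promoter calls by region ranged from 2 to 4 (4 without control telencephalon culture 59), those by genotype from 0 to 2 (2 without K27M brainstem culture 61), those for region in K27M from 0 to 3 (0 without K27M brainstem culture 41 or 59 or K27M telencephalon culture 41, 59 or 61), shared peak calls by region from 0 to 7 (7 without K27M telencephalon culture 59; 0 without control brainstem culture 61, K27M brainstem culture 59, control telencephalon culture 59 or 61 or K27M telencephalon culture 41) and by genotype from 0 to 2 (1 without control brainstem culture 59, 2 without K27M telencephalon culture 59). The cause was not tested.

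The 10 genes were never called: over 376 refits of their region and genotype differences (genes with a library lacking a peak under a setting could not be fitted) the lowest adjusted p by limma was 0.765, and 70 refits changed the sign of a difference that was itself at most 0.10 in size. By region, the reversed log2 differences were 0.062 for Myc, 0.038 for Mycn, 0.036 for Mycl, 0.073 for Fos, 0.015 for Fosl2, 0.024 for Jun, 0.052 for Junb and 0.0086 for Atf3 with no centring, and 0.090 for Myc, 0.15 for Mycn, 0.037 for Mycl, 0.14 for Fosl2, 0.060 for Jun, 0.070 for Junb and -0.021 for Egr1 with width times fold. In fold percentile points they were 5.00 for Myc, 0.62 for Mycn, 6.75 for Fos, 1.01 for Jun and 2.38 for Junb. By genotype they were 0.24 for Myc, 0.059 for Mycn, -0.059 for Fosl2, 0.0069 for Jun and -0.24 for Atf3 with width times fold, 0.024 for Jun with no centring, and -0.0081 for Jund with no replicate block, and in percentile points 1.16 for Myc and 8.44 for Jun. With single libraries left out, the region difference ranged from -0.10 to 0.030 for Myc, from -0.11 to 0.012 for Mycn, from -0.085 to 0.018 for Mycl, from -0.053 to 0.051 for Fos, from -0.13 to 0.018 for Jun, from -0.14 to 0.051 for Junb and from -0.00094 to 0.12 for Egr1. With single libraries left out, the genotype difference ranged from -0.16 to 0.051 for Myc, from -0.16 to 0.012 for Mycn, from -0.027 to 0.11 for Mycl, from -0.12 to 0.034 for Fos, from -0.10 to 0.10 for Jun, from -0.25 to 0.0065 for Junb and from -0.0046 to 0.11 for Jund.

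Libraries of the same culture number deviated together only weakly: over 16 such pairs of different groups the correlation of promoter deviations was -0.105 to 0.288 (mean 0.081), above 0.1 in 7, against a mean of -0.028 over 47 pairs of different numbers. The block was kept because the study matched cultures, and leaving it out moved no other count of calls by over 1.5 times. In simulated data of this design, region changes of 0.3 (log2) set at 100 promoters were recovered for 51% and of 0.6 for 100%. These promoters were drawn from all, and recovery at the 10 genes alone was not simulated. The 10 genes had a median SD of 0.158 on the centred log2 scale, against 0.126 for all promoters. Changes by genotype and interactions were not simulated. Differences of 0.3, and smaller ones, at the 10 genes could go uncalled. Peaks below the threshold of the caller are not in the lists, and read depth behind each fold is unknown.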
